A study of Mus musculus with 10 samples.

Results

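Complement and coagulation factors are the plasma proteases, cofactors and inhibitors that defend against microbes and stop bleeding. They were read here in the liver of lactating mice on 2 diets. The set was a list of 46 genes, found in the files by name. A gene entered if the deposited array table held a probe set (short probes read together as a measure of a transcript) carrying its symbol alone. Where it had several, the probe set with the highest mean over the 10 arrays stood for it. This left 43 of the 46 genes, of 18193 genes so measured in all, with 26 in coagulation and 17 in complement. The probe set of C4b also carries another symbol and was left out, and C3 and Cpb2 are not analysed here.

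The study fed lactating QSi5 mice, a laboratory strain, either a high glycaemic index (HGI) or a low glycaemic index (LGI) diet from pregnancy until peak lactation, with 5 mice and 5 arrays in each group. Each diet held 51.4% of its weight as the test carbohydrate, which was glucose in HGI (15.6 MJ/kg) and high-amylose starch in LGI (16.3 MJ/kg). The labels give every HGI mouse a positive and every LGI mouse a negative energy balance, so diet and energy balance cannot be told apart. The labels name no allele or agent, and the age of the mice is not stated in them. Values are log2 expression values of whole liver, differences are HGI minus LGI, and an adjusted p under 0.05 over all 45037 probe sets tested counts as passing.

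Hepatocytes make most of these proteins and secrete most of the proteases among them as inactive precursors. Clotting runs as a cascade in which a contact arm and a tissue factor arm both activate factor X, which with factor V turns prothrombin into thrombin, and thrombin cuts fibrinogen into fibrin. Complement is opened by mannose-binding lectins, by antibody or by spontaneous turnover, and ends in a pore built from C5 to C9. Several members, fibrinogen among them, are acute phase proteins in the mouse, whose liver transcripts respond to inflammatory signals.

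The sequences before the starts of 5 genes are shown because the results turn on them: F11 passed the test, C9 had the largest difference among complement genes, and the 3 fibrinogen chains varied together. They are the 250 bases before the annotated start from RefSeq, build GRCm38.p6, written 5′ to 3′ in the direction of the gene. F11 lies at chr8:45262032-45262281 on the minus strand, C9 at chr15:6445096-6445345 on the plus strand, Fga at chr3:83025903-83026152 on the plus strand, Fgb at chr3:83049864-83050113 on the minus strand and Fgg at chr3:83007474-83007723 on the plus strand. Capitals mark matches to the letters searched for liver factors on both strands, GTTAAT for HNF1, CAAAGTC for HNF4, CTGGGA for the IL-6 response element and TTGCNNAA for C/EBP.
F11: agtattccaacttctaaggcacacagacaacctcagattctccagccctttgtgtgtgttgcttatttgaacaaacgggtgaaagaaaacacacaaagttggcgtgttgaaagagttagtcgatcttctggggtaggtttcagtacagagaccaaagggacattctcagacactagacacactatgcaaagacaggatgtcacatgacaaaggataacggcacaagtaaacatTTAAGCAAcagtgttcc
C9: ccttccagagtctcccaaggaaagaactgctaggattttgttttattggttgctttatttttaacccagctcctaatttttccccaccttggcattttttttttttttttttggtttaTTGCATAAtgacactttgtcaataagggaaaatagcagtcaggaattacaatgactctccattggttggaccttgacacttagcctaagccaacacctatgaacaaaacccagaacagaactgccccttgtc
Fga: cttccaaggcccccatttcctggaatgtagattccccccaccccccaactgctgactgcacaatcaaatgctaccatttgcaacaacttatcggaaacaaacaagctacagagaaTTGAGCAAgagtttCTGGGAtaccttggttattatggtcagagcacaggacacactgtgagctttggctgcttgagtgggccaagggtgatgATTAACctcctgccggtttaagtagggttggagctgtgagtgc
Fgb: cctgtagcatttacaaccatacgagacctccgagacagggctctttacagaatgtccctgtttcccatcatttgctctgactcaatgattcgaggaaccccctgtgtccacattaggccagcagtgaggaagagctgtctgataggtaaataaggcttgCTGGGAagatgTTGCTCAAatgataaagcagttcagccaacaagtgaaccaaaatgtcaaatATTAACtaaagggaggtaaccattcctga
Fgg: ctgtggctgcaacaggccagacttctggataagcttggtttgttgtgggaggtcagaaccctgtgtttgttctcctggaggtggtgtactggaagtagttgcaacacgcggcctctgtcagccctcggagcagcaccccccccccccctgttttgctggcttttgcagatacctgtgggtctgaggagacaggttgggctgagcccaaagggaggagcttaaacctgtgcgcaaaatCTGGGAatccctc

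The marked letters differ between these genes. F11 holds 1 C/EBP match, from base -17 to -10 counted back from the start, and C9 holds 1, from -132 to -125. Fga and Fgb each hold an HNF1, an IL-6 and a C/EBP match, and Fgg holds an IL-6 match alone; the marked bases of Fga lie between -135 and -38 and those of Fgb between -91 and -24. The matches in these 5 sequences did not overlap. RefSeq sequence was at hand for 32 of the 43 genes. HNF1 letters stood before 12 of these 32 (37.5%), against 6.43% of 32851 mouse promoters of the same length. The IL-6 letters stood before 14 (43.8%, against 27.0%), the C/EBP letters before 7 (21.9%, against 9.56%) and the HNF4 letters before 2 (6.25%, against 3.84%). A match is a description of letters and names no bound factor.

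Depth is not defined for arrays, whose number limits the precision. Over all probe sets, 29 passed, 0.0644% of those tested, with 17 (0.0377%) higher and 12 (0.0266%) lower under HGI. Centring each array on its median gave 17, of which 13 were higher and 4 lower. Pairs of arrays correlated at 0.986 to 0.996. One LGI array, of mouse 4, stood apart in the genes below: it was the highest of 10 in 18 of 19 acute phase genes, with Saa2 at 14.37 against 5.32 to 9.16 elsewhere. Differences of members that turn direction or move by over 1.5 times without it are given both ways. Array HGI 1 had the lowest spread (SD 2.16, against 2.26 to 2.31 in the others) and was the lowest of 10 in 28.5% and at either extreme in 39.7% of all genes, but in 11.6% of the members. Hepatocyte markers had a mean level of 13.41 in LGI 4 and 13.52 to 13.65 in the other arrays. Of 6 mammary epithelial markers, 5 lay below the array median in every array.

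Among the clotting genes, 1 of 26 passed the test: F11, higher under HGI. At an unadjusted p under 0.05 in the same limma fit, 7 were higher and 0 lower, and 24 had a difference above 0. Of complement, 0 of 17 passed, and at an unadjusted p under 0.05, 2 were higher and 3 lower. Over all genes with 1 probe set each, 0.0385% passed as higher, 3.07% were higher and 6.23% lower at the unadjusted threshold, and 41.8% lay above 0. Of the members, 4 had a mean under 6, and over the 7161 genes with a mean of at least 6 the shares were 0.0698%, 3.81%, 9.79% and 37.9%. The members' shares were 26.9% and 0% for clotting and 11.8% and 17.6% for complement. Median differences were 0.11 for clotting (quartiles 0.06 and 0.23) and 0.00 for complement (-0.18 and 0.18), against -0.03 over all genes. Without LGI 4 these medians were 0.13, 0.07 and -0.03, with 8 clotting genes and 6 complement genes higher and 2 complement genes lower at the unadjusted threshold, against 3.11% and 6.12% of all genes, and 22 clotting and 10 complement genes above 0, against 40.8%. Without HGI 1 the shares over all genes were 4.75% higher, 4.96% lower and 45.9% above 0, and 7.19%, 6.06% and 52.7% with a mean of at least 6. The members then counted 8 clotting genes higher, 0 lower and 25 above 0, and 4 complement genes higher, 3 lower and 10 above 0.

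**Figure D1:**
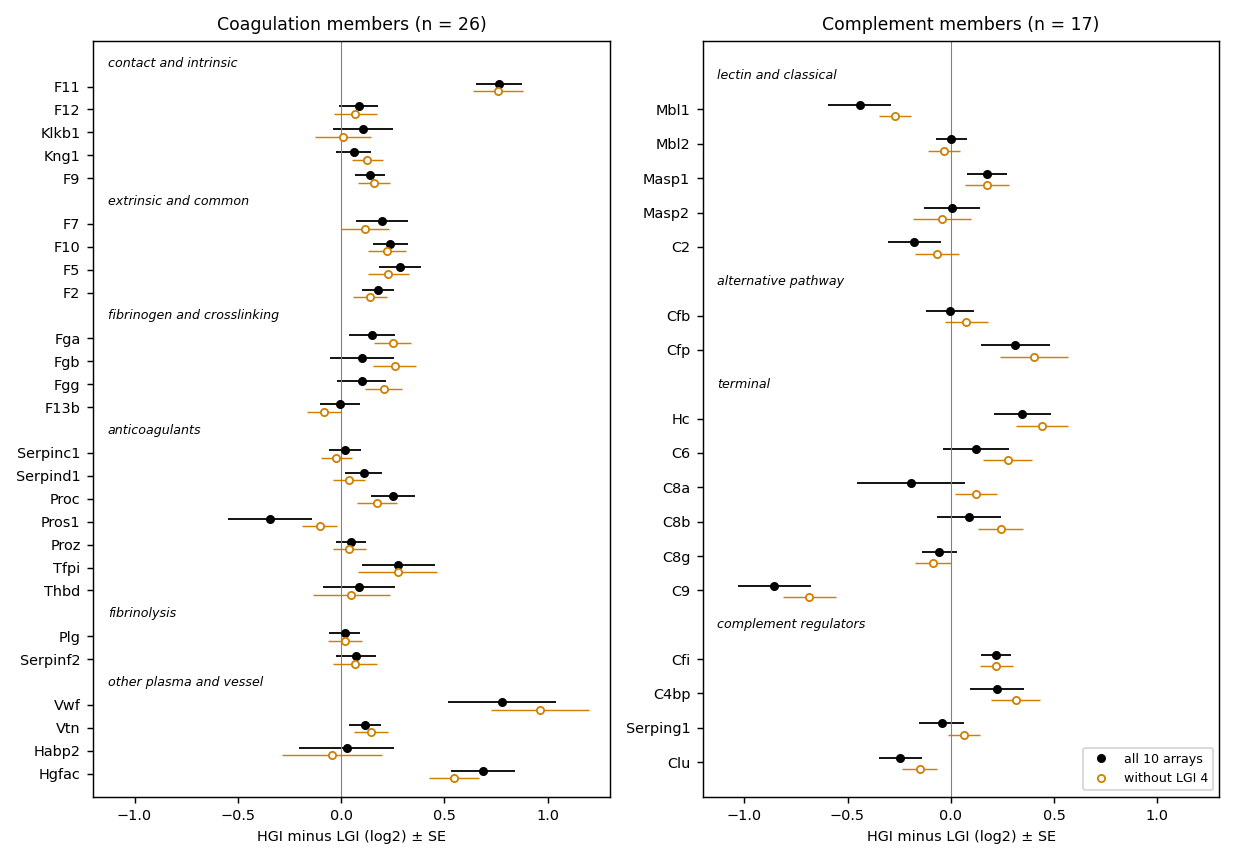
HGI minus LGI difference (log2, ± SE) of each of the 26 clotting and 17 complement genes by role, with all 10 arrays (black) and without LGI 4 (orange). F11, Hgfac and Vwf lie farthest right, C9 farthest left, and C8a moves from -0.19 to 0.12 without LGI 4.

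The contact and intrinsic arm includes the member that passed. Factor XI, encoded by F11, is the zymogen that thrombin or factor XIIa activates and that in turn activates factor IX. F11 read 8.57, 9.24, 8.91, 8.90 and 9.06 in HGI mice 1 to 5 and 8.07, 8.16, 8.32, 8.16 and 8.15 in LGI mice 1 to 5. Every HGI array lay above every LGI array, as in 2 of 26 clotting genes, against 0.5% of all genes and 0.67% of those with a mean of at least 6. The means were 8.94 ± 0.25 (SD, n = 5) under HGI and 8.17 ± 0.09 (SD, n = 5) under LGI, and the difference was 0.76 ± 0.11 (SE, n = 5 and 5, adjusted p = 0.0302), 1.70-fold, with an exact two-sided permutation p of 0.00794, the smallest that 5 against 5 arrays can give. Without LGI 4 the difference was 0.76 (adjusted p = 0.0496), where 0.0955% of all probe sets passed. Leaving out each array in turn gave 0.69 to 0.86; the test was passed without HGI 1, HGI 3 or LGI 4 and missed when any other array was left out (adjusted p 0.0517 to 0.115).

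The other members of this arm did not pass. They were F12 0.08 ± 0.10, Klkb1 0.11 ± 0.14, Kng1 0.06 ± 0.09 and F9 0.14 ± 0.07, with Klkb1 at 0.01 and Kng1 at 0.13 without LGI 4. Without HGI 1, F12 stood at 0.15, Klkb1 at 0.22, Kng1 at 0.06 and F9 at 0.17. F12 encodes the contact factor XII, Klkb1 plasma prekallikrein, Kng1 kininogen and F9 factor IX. Klkb1 is the neighbour of F11 in RefSeq, and the next gene on, Cyp4v3, stood at -0.41 ± 0.11 (adjusted p = 0.352). On the other side Mtnr1a stood at 0.00 ± 0.08. Over the 10 arrays F11 and Klkb1 gave Pearson r 0.467 (permutation p = 0.182, 0.277 adjusted over 8 pairs) and Spearman rho 0.648 (p = 0.0482, 0.0771 adjusted, permutation). Without HGI 2 and HGI 5, which lie farthest from the median of F11, r was 0.179.

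**Figure D2:**
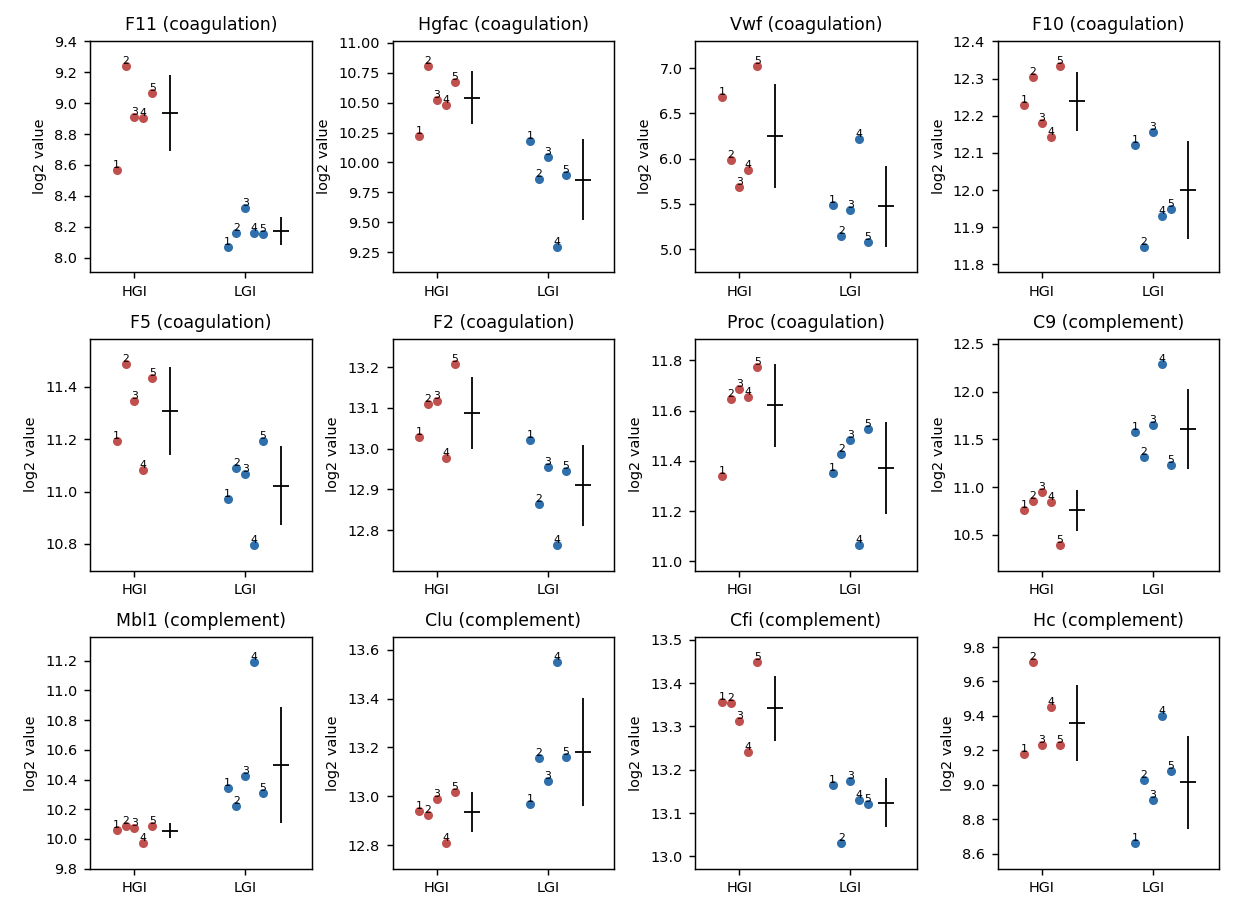
Log2 value in every array (1 point per mouse, 5 per diet, bars at the means) of the members described one by one. F11, Hgfac and Cfi are higher in every HGI array than in any LGI array, and C9 and Mbl1 are lower.

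In the tissue factor and common arm, all 4 members had a difference above 0 and none passed. Factor X, encoded by F10, converts prothrombin in the presence of factor V. F10 read 12.23, 12.30, 12.18, 12.14 and 12.33 in HGI mice 1 to 5 and 12.12, 11.85, 12.16, 11.93 and 11.95 in LGI mice 1 to 5. The lowest HGI value is 12.14, so LGI 3 at 12.16 falls among the HGI arrays and no other LGI array does. The difference was 0.24 ± 0.08 (SE, n = 5 and 5, adjusted p = 0.509), exact permutation p = 0.0159, and the other 2 probe sets gave 0.18 and 0.14.

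F5 encodes the cofactor of factor X. F5 read 11.19, 11.49, 11.34, 11.08 and 11.44 in HGI mice 1 to 5 and 10.97, 11.09, 11.07, 10.79 and 11.19 in LGI mice 1 to 5. HGI 1 and HGI 4 fall among the LGI arrays. The difference was 0.29 ± 0.10 (SE, n = 5 and 5, adjusted p = 0.516), and the dimmer probe set gave 0.38 ± 0.10 (adjusted p = 0.308) with no overlap between the diets. F2 encodes prothrombin. F2 read 13.03, 13.11, 13.12, 12.98 and 13.21 in HGI mice 1 to 5 and 13.02, 12.86, 12.96, 12.76 and 12.95 in LGI mice 1 to 5. HGI 4 at 12.98 lies below LGI 1, and the difference was 0.18 ± 0.08 (SE, n = 5 and 5, adjusted p = 0.647). F7, whose product binds tissue factor, stood at 0.20 ± 0.13, and at 0.11 without LGI 4.

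Fibrinogen, the substrate of thrombin, is built from 3 chains whose genes lie side by side in RefSeq. Fga read 13.96, 13.85, 13.67, 13.80 and 13.89 in HGI mice 1 to 5 and 13.74, 13.52, 13.55, 14.07 and 13.53 in LGI mice 1 to 5. Fgb read 13.77, 13.72, 13.34, 13.60 and 13.63 in HGI mice 1 to 5 and 13.51, 13.30, 13.40, 14.15 and 13.20 in LGI mice 1 to 5. Fgg read 14.06, 13.94, 13.69, 13.88 and 13.94 in HGI mice 1 to 5 and 13.78, 13.65, 13.72, 14.23 and 13.63 in LGI mice 1 to 5. In each chain LGI 4 is the highest array of all 10, and the other LGI arrays lie below the median of the HGI arrays. The difference over all arrays was 0.15 ± 0.11 (SE, n = 5 and 5, adjusted p = 0.823) for Fga, 0.10 ± 0.16 (SE, n = 5 and 5, adjusted p = 0.936) for Fgb and 0.10 ± 0.12 (SE, n = 5 and 5, adjusted p = 0.908) for Fgg. Without LGI 4 the differences were 0.25, 0.26 and 0.21. The limma fit then gave unadjusted p of 0.0157, 0.0289 and 0.0408 and adjusted p of 0.510, 0.588 and 0.627. HGI 1 was the highest HGI array in each chain, and without it alone the differences were 0.12, 0.06 and 0.06. Without HGI 1 and LGI 4 together they were 0.22, 0.22 and 0.17. Of the 4 genes with F13b included, 1 was then higher at the unadjusted threshold, against 3 without LGI 4 alone. F13b, the carrier subunit of the enzyme that cross-links fibrin, stood at -0.01 ± 0.10, and at -0.08 without LGI 4.

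The chains varied together over the 10 arrays. Pearson r was 0.943 for Fga and Fgb (permutation p = 2e-05), 0.969 for Fga and Fgg (p = 2e-05, permutation) and 0.987 for Fgb and Fgg (permutation p = 1e-05, the smallest that 100000 resamples give), each 5.3e-05 after adjustment over 8 pairs. Spearman rho was 0.964, 0.976 and 0.988, with permutation p of 2e-05, 6e-05 and 3e-05 (0.00012, 0.00016 and 0.00012 adjusted). Without the 2 arrays farthest from the median, LGI 4 among them, r stayed at 0.930, 0.958 and 0.980. The 3 genes share the same arrays, so these values describe one set of livers.

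**Figure D3:**
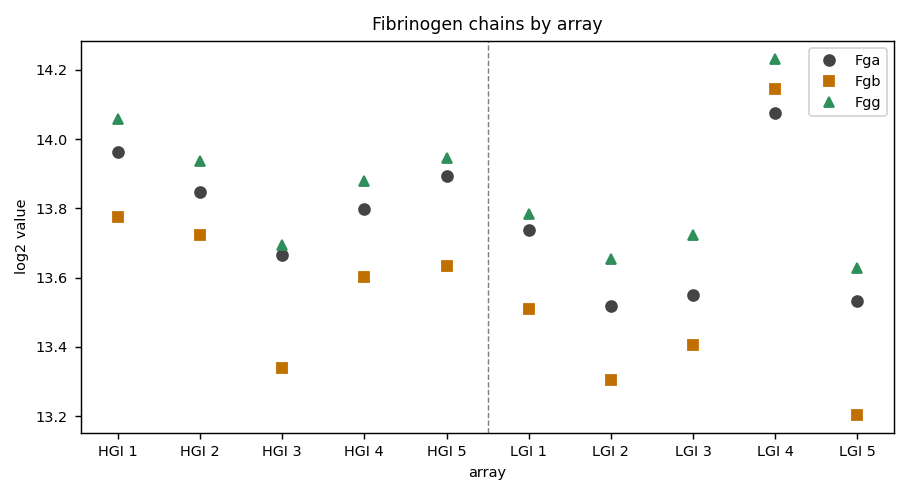
Log2 value (vertical axis) of the 3 fibrinogen chains in each array (horizontal axis, HGI left and LGI right of the broken line). The 3 symbols move together, and LGI 4 carries the highest value of each chain.

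Of the anticoagulants, 6 of 7 had a difference above 0 and none passed. Protein C, encoded by Proc, is a vitamin K dependent protease that inactivates factor V. Proc read 11.34, 11.65, 11.68, 11.66 and 11.78 in HGI mice 1 to 5 and 11.35, 11.43, 11.48, 11.06 and 11.53 in LGI mice 1 to 5. HGI 1 falls among the LGI arrays, and LGI 4 is the lowest of all. The difference was 0.25 ± 0.11 (SE, n = 5 and 5, adjusted p = 0.624), and 0.17 without LGI 4. The others were Serpinc1 0.02 ± 0.08, Serpind1 0.11 ± 0.09, Proz 0.05 ± 0.07, Tfpi 0.28 ± 0.18 and Thbd 0.09 ± 0.17. Without LGI 4, Serpinc1 stood at -0.02, Serpind1 at 0.04 and Thbd at 0.05. These encode antithrombin, heparin cofactor II, protein Z, the tissue factor pathway inhibitor and thrombomodulin. Tfpi and Thbd are expressed mainly by endothelium, and their levels here were dim, 3.97 to 5.50. Pros1, the protein S gene, was singled out after its values were seen: it stood at -0.35 ± 0.20, and at -0.10 without LGI 4. That array read 8.59 against 7.17 to 7.50 in the other 9 arrays.

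In the probe set standing for each gene, fibrinolysis and the remaining plasma proteins gave small differences with 2 exceptions. Plasminogen (Plg) stood at 0.02 ± 0.08 and its inhibitor Serpinf2 at 0.07 ± 0.10, vitronectin (Vtn) at 0.11 ± 0.08 and the protease Habp2 at 0.03 ± 0.23 (-0.04 without LGI 4). The dimmer probe set of Habp2 gave -0.42 ± 0.21 (adjusted p = 0.704), and -0.52 without LGI 4. Hgfac encodes a serine protease related to factor XII that activates hepatocyte growth factor. Hgfac read 10.22, 10.81, 10.52, 10.48 and 10.68 in HGI mice 1 to 5 and 10.18, 9.87, 10.05, 9.29 and 9.89 in LGI mice 1 to 5. Every HGI array lay above every LGI array, with HGI 1 and LGI 1 the closest. The difference was 0.69 ± 0.15 (SE, n = 5 and 5, adjusted p = 0.190), 1.61-fold, exact permutation p = 0.00794, and 0.55 without LGI 4, the lowest array.

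Vwf encodes von Willebrand factor, which tethers platelets and carries factor VIII, and is made by endothelium and megakaryocytes. Vwf read 6.68, 5.99, 5.68, 5.88 and 7.02 in HGI mice 1 to 5 and 5.49, 5.15, 5.44, 6.21 and 5.08 in LGI mice 1 to 5. HGI 1 and HGI 5 are high, and LGI 4 falls among the HGI arrays. The difference was 0.78 ± 0.26 (SE, n = 5 and 5, adjusted p = 0.491), exact permutation p = 0.0556, and 0.96 without LGI 4. In whole liver, more cells of a type and more RNA per cell cannot be told apart. Beside Vwf, 11 of 13 endothelial markers lay above 0 (median 0.19), with mean levels of 5.97 to 6.46 in HGI and 5.89 to 6.24 in LGI arrays and none below the array median throughout. Of 7 platelet and megakaryocyte markers, 4 lay above 0 (median 0.06, mean 0.14), with mean levels of 6.03 to 6.31 in HGI and 5.61 to 6.47 in LGI arrays and none below the array median throughout. Without LGI 4, the endothelial median was 0.16, and the platelet and megakaryocyte list had a median of 0.06 and a mean of 0.26. At the unadjusted threshold, 1 of 13 and 3 of 7 were then higher (7.69% and 42.9%), against 3.11% of all genes. The part of either list in the result was not tested.

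The role medians were 0.11 for the contact and intrinsic arm, 0.22 for the tissue factor and common arm, 0.10 for fibrinogen and F13b, 0.09 for anticoagulants, 0.04 for fibrinolysis and 0.40 for the other plasma proteins. Without LGI 4 they were, in the same order, 0.13, 0.18, 0.23, 0.04, 0.04 and 0.34. As a per-array summary, the median over clotting genes of the deviation from each gene's mean was 0.02 to 0.13 in HGI arrays and -0.16 to -0.02 in LGI arrays. Erythroid markers also stood higher under HGI: 5 of 5 lay above 0 (median 0.10, mean 0.76), with mean levels of 5.49 to 6.08 in HGI and 4.79 to 5.44 in LGI arrays, and 2 of 5 lay below the array median throughout. Chosen after their values were seen, Slc4a1, the red cell anion exchanger, stood at 2.25 ± 0.38 (adjusted p = 0.0625) and Alas2, which starts haem synthesis in red cell precursors, at 1.34 ± 0.33 (adjusted p = 0.262). Their part in the clotting values was not tested. The per-array median of complement was -0.13 to 0.05 in HGI arrays, and in LGI arrays it was 0.32 in LGI 4 and -0.13 to -0.05 in the others.

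**Figure D4:**
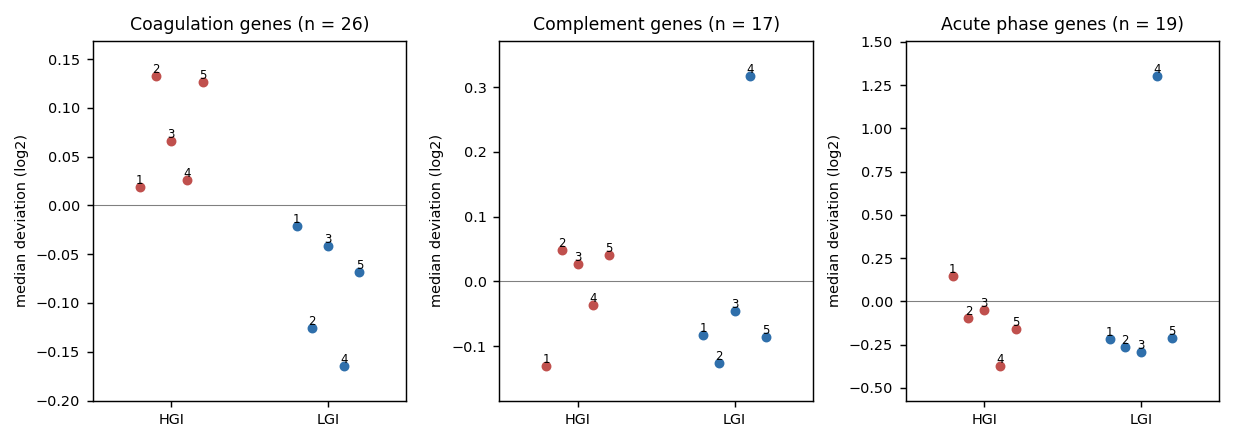
Median over the genes of a list of the deviation from each gene's mean over 10 arrays (log2), per array, for clotting, complement and acute phase genes; digits are mouse numbers and the 3 vertical axes differ. Clotting medians are higher in HGI, while LGI 4 stands apart in the complement and acute phase panels.

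Complement genes lay on both sides of 0, and none passed. The pore-forming component C9 had the largest difference of the 17. C9 read 10.76, 10.85, 10.95, 10.84 and 10.39 in HGI mice 1 to 5 and 11.57, 11.31, 11.65, 12.29 and 11.23 in LGI mice 1 to 5. Every HGI array lay below every LGI array, as in 2 of 17 complement genes, against 1.67% of all genes and 2.86% of those with a mean of at least 6. The means were 10.76 ± 0.22 (SD, n = 5) under HGI and 11.61 ± 0.42 (SD, n = 5) under LGI, and the difference was -0.85 ± 0.18 (SE, n = 5 and 5, adjusted p = 0.137), 1.81-fold lower under HGI, exact permutation p = 0.00794. LGI 4 is the highest array, and without it the difference was -0.68 (adjusted p = 0.0849).

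Of the other terminal genes, Hc encodes complement C5, from which the pore starts. Hc read 9.18, 9.71, 9.23, 9.45 and 9.23 in HGI mice 1 to 5 and 8.66, 9.03, 8.91, 9.40 and 9.08 in LGI mice 1 to 5. HGI 2 and HGI 4 lie above every LGI array, while LGI 4 falls among the HGI arrays. The difference was 0.35 ± 0.14 (SE, n = 5 and 5, adjusted p = 0.575), exact permutation p = 0.0714, and 0.44 without LGI 4. C6 stood at 0.12 ± 0.16, C8g at -0.06 ± 0.08 and C8b at 0.09 ± 0.15. Without LGI 4 these were 0.28 (unadjusted p = 0.0366 in the limma fit), -0.09 and 0.24 (unadjusted p = 0.0448), with adjusted p of 0.613, 0.878 and 0.638. C8a was singled out after its values were seen: it stood at -0.19 ± 0.26 and at 0.12 without LGI 4. That array read 11.53 against 9.86 to 10.33 in the other 9 arrays. C8a and C8b, adjacent in RefSeq, gave r 0.844 over the 10 arrays (permutation p = 0.00068, 0.00136 adjusted) and rho 0.770 (permutation p = 0.0120, 0.0240 adjusted), and r 0.566 without LGI 4 and HGI 5. C8g gave r -0.372 with C8a (permutation p = 0.249, 0.284 adjusted; rho -0.297, permutation p = 0.404, 0.487 adjusted) and -0.307 with C8b (permutation p = 0.390, 0.390 adjusted; rho -0.285, permutation p = 0.426, 0.487 adjusted). Without the 2 arrays farthest out, these r were 0.00 and -0.316.

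Of the pathway openers, Mbl1 and Mbl2 encode the mannose-binding lectins, which recognise sugars on microbes, and Masp1 and Masp2 their proteases. Mbl1 read 10.06, 10.09, 10.08, 9.97 and 10.09 in HGI mice 1 to 5 and 10.34, 10.22, 10.43, 11.19 and 10.31 in LGI mice 1 to 5. Every HGI array lay below every LGI array, and LGI 4 is far above the rest. The difference was -0.44 ± 0.15 (SE, n = 5 and 5, adjusted p = 0.499), exact permutation p = 0.00794, and -0.27 without LGI 4. Mbl2 stood at 0.00 ± 0.08 (-0.03 without LGI 4), and the lectins gave r -0.431 over 10 arrays (permutation p = 0.208, 0.277 adjusted), rho 0.115 (permutation p = 0.758, 0.758 adjusted), r 0.153 without LGI 3 and LGI 4 and r 0.573 without LGI 4. Masp1 stood at 0.18 ± 0.10, with its other 4 probe sets at -0.03 to 0.23, and C2, the shared protease of the lectin and classical routes, at -0.18 ± 0.13 (-0.07 without LGI 4). The probe sets of Masp2 disagreed: the brighter one gave 0.01 ± 0.13 (-0.04 without LGI 4), and the dimmer one, chosen after its values were seen, 0.41 ± 0.08 (adjusted p = 0.0833) with every HGI array (8.18 to 8.31) above every LGI array (7.71 to 7.97).

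In the alternative route, factor B (Cfb) stood at 0.00 ± 0.11 (0.07 without LGI 4) and properdin (Cfp), which stabilises the convertase and is made by myeloid cells, at 0.31 ± 0.17. Beside Cfp, 12 of 12 Kupffer cell and macrophage markers lay above 0 (median 0.29), with mean levels of 7.36 to 8.18 in HGI and 7.08 to 7.81 in LGI arrays. Without LGI 4, Cfp stood at 0.40 (adjusted p = 0.594) and the marker median was 0.40. At the unadjusted threshold, 6 of the 12 markers were then higher, against 3.11% of all genes. The part of these markers in the result was not tested. Among the regulators, Cfi encodes factor I, which cuts C3b and C4b. Cfi read 13.36, 13.35, 13.31, 13.24 and 13.45 in HGI mice 1 to 5 and 13.16, 13.03, 13.17, 13.13 and 13.12 in LGI mice 1 to 5. Every HGI array lay above every LGI array, as in 1 of 17 complement genes, against 0.5% of all genes and 0.67% of those with a mean of at least 6. The difference was 0.22 ± 0.07 (SE, n = 5 and 5, adjusted p = 0.476), exact permutation p = 0.00794, and 0.22 without LGI 4.

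Clu encodes clusterin, which blocks assembly of the pore. Clu read 12.94, 12.92, 12.99, 12.81 and 13.02 in HGI mice 1 to 5 and 12.97, 13.16, 13.06, 13.55 and 13.16 in LGI mice 1 to 5. LGI 1 falls among the HGI arrays, and LGI 4 is the highest. The difference was -0.24 ± 0.10 (SE, n = 5 and 5, adjusted p = 0.624) and -0.15 without LGI 4, and the other 3 probe sets gave -0.03, -0.18 and -0.22. C4bp, whose product is a cofactor of factor I, stood at 0.23 ± 0.13, and Serping1, the C1 inhibitor, at -0.04 ± 0.11 and at 0.06 without LGI 4. Median differences were 0.00 for the lectin and classical openers, 0.15 for the alternative route, 0.02 for the terminal genes and 0.09 for the regulators. Without LGI 4 they were -0.04, 0.24, 0.18 and 0.14.

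**Figure D5:**
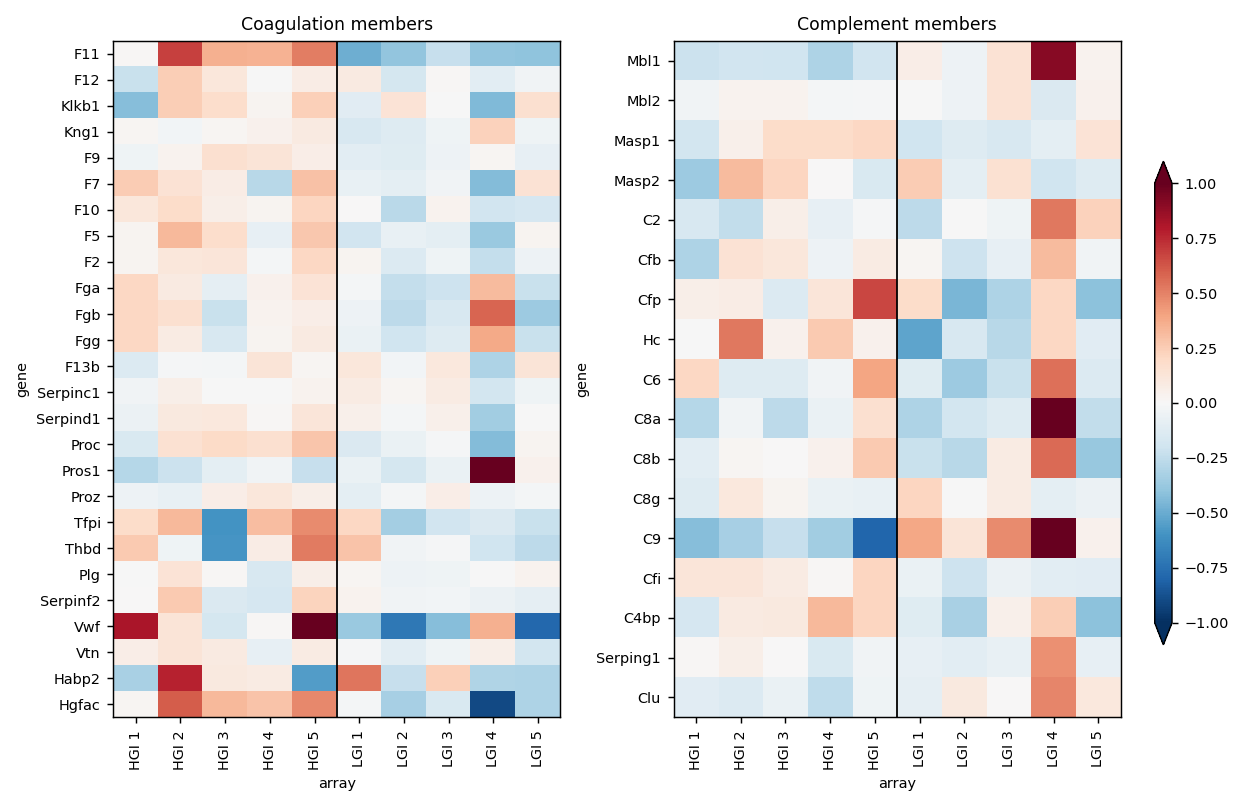
Deviation from each gene's mean over 10 arrays (log2, colour) for the 43 members (rows, by role) in each array (columns). LGI 4 holds the strongest colours in both directions, and the F11, Hgfac and C9 rows split by diet.

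Array LGI 4 held the highest of 10 values in 14 of 43 members and the lowest in 10 (55.8% in all), against 28.2% of all genes. HGI 1, at an extreme in more of all genes, was highest in 0 and lowest in 5 of the members. In complement LGI 4 was highest in 9 of 17 genes and lowest in 1, and in clotting highest in 5 and lowest in 9 of 26. Against the mean of the other LGI arrays, chosen after the values were seen, it stood 1.57 higher in C8a, 1.20 in Pros1, 0.93 in Vwf, 0.86 in Mbl1, 0.85 in C9 and 0.79 in Fgb, with Hgfac at -0.70 and Klkb1 at -0.49. Acute phase genes in the same array stood farther out in the examples chosen likewise: Saa1 read 13.93 against 6.69 to 10.48 in the other 9 arrays, Lcn2 13.38 against 6.65 to 9.03 and Orm2 12.52 against 5.86 to 8.20. Their per-array median deviation was 1.31 in LGI 4, 0.15 in HGI 1 and -0.37 to -0.05 in the others. Whether this accounts for the members' values in LGI 4 was not tested.

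Other genes of the pathways gave no call in the limma fit. Of 20 other complement genes, 3 were higher at an unadjusted p under 0.05 (median 0.08, 15 above 0). For this list and the next, the shares over all genes were 3.07% higher at that threshold and 41.8% above 0. The smallest p among the 20 belonged to C1s1, a classical route protease (0.42 ± 0.11, adjusted p = 0.312), and Vsig4, a complement receptor of Kupffer cells (0.46 ± 0.17, adjusted p = 0.525). Of 21 other clotting genes, 1 was higher (median 0.00, 11 above 0), with Tfpi2, a protease inhibitor, at 0.23 ± 0.11 (adjusted p = 0.655) and F2r, a thrombin receptor, at 0.34 ± 0.17 (adjusted p = 0.701). The vitamin K and secretion list had a median of -0.01 over 7 genes, with Furin at 0.25 ± 0.15 and Vkorc1l1 at -0.19 ± 0.13. Of 16 liver regulators, Onecut1 stood at 0.62 ± 0.29 (adjusted p = 0.663) and the bile acid receptor Nr1h4 at -0.29 ± 0.14 (adjusted p = 0.671). In these 2 lists, 0 genes were past the unadjusted threshold in either direction with all arrays. The regulator median was 0.08, and 0.16 without LGI 4, where 2 of 16 were higher at that threshold (12.5%, against 3.11% of all genes). Without HGI 1, 2 of 16 regulators and 1 of 7 vitamin K and secretion genes were higher (12.5% and 14.3%, against 4.75%). Acute phase genes had a median of -0.22, and 0.19 without LGI 4, where haptoglobin (Hp) passed (0.62, adjusted p = 0.0316). Without LGI 4, 15 of 19 lay above 0, against 40.8% of all genes. At the unadjusted threshold 6 were then higher (31.6%, against 3.11%) and 2 lower (10.5%, against 6.12%). Without HGI 1 and LGI 4 together the median was 0.09, with 12 of 19 above 0, against 45.0% of all genes. In that fit 1 acute phase gene passed as higher and 2 as lower, against 20 and 18 of all 18193 genes. At the unadjusted threshold 6 were higher (31.6%, against 5.13%) and 3 lower (15.8%, against 5.74%). With all arrays, Orm2 stood at -2.15 ± 0.82 and Orm3 at -1.47 ± 0.58, the 2 of 19 past the unadjusted threshold, and at -1.15 and -0.74 without LGI 4. Over 11 lists of cell type markers 0 genes passed, 7 were higher and 3 lower at the unadjusted threshold, and list medians ran from -0.09 (cholangiocyte) to 0.29 (Kupffer cell). The higher ones were 2 of 13 endothelial, 2 of 5 erythroid, 1 of 10 hepatocyte, 1 of 12 Kupffer cell and 1 of 9 stellate cell markers. The lower ones were 1 of 5 cholangiocyte, 1 of 10 hepatocyte and 1 of 9 stellate cell markers. Of all genes, 3.07% were higher and 6.23% lower. Without LGI 4 the higher ones were 1 of 13 endothelial, 2 of 5 erythroid, 6 of 12 Kupffer cell, 1 of 8 neutrophil and 3 of 7 platelet and megakaryocyte markers. The lower ones were then 1 of 5 cholangiocyte and 3 of 10 hepatocyte markers, against 3.11% higher and 6.12% lower of all genes.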

How the data were processed

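Liver RNA of 10 mice was hybridised to Affymetrix arrays, 1 array per mouse, after extraction with an RNeasy Mini Kit and one-cycle biotin labelling, per the labels' protocols. The deposited log2 values per probe set were made by the authors with RMA and R 2.6.1, per the submitters' processing notes. RMA subtracts background, quantile normalizes the arrays and summarises each probe set, which reduces shifts shared by a whole array. The deposited values still differed between arrays. The median over all genes of the deviation from each gene's mean was -0.08 in HGI 1 and -0.01 to 0.02 in the others. No genome build is named in those notes.

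Of 45101 probe sets, 64 controls were left out and 45037 tested with no filter on dim signals. Platform annotation gave 34945 of them 1 symbol, 932 several and 9160 none. RefSeq tables (GRCm38.p6) gave gene order for the 43 members and promoters for 32 of them. HGI was compared with LGI by limma 3.58.1 in R 4.3.3 (lmFit, eBayes), with Benjamini-Hochberg adjustment over all probe sets. Differences of means were also tested by exact two-sided permutation over all 252 assignments, and correlations with 100000 resamples (Python 3.11.15, scipy 1.17.1). The labels number 5 mice in each group, and no 2 arrays held the same values.

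The members and lists were chosen with earlier results of these data known. Values in every array are given for members past the threshold, those with an unadjusted p under 0.05, the 3 largest differences in clotting and in complement, and the 3 fibrinogen chains. From other lists, genes past the threshold or the 2 with the smallest p are named. Alternatives were filters, normalizations, variance models, array weights, probe set choice, a replicate block and leaving out arrays. Of the members, 9 had a mean of at least 13, with array maxima of 14.65 to 14.71.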

Additional observations from a re-analysis of the deposited data

Results flagged for a closer look

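In 9 of the 86 groups of 5 arrays tested (each of 43 members in each diet), 1 array lay far from the others for the spread of its group. Chance gives about 4.3 such groups of 86. In 7 of the 9 the array was LGI 4, high in 6 and low in 1.

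LGI 4 read 14.23 in Fgg, where the nearest LGI array read 13.78, and 8.59 in Pros1, where the nearest read 7.50. It read 11.19 in Mbl1 (nearest 10.43), 6.48 in C6 (nearest 5.81), 11.53 in C8a (nearest 10.04) and 12.59 in Serping1 (nearest 12.06). In Serpind1, the heparin cofactor II gene, it was low, at 11.37 against 11.69. Among HGI arrays, HGI 3 read 3.97 in Tfpi (nearest 4.75), a dim probe set, and HGI 4 read 9.97 in Mbl1 (nearest 10.06). In LGI 4, 18 of 19 acute phase genes were also the highest of all 10 arrays, and their part in these values was not tested.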

How the results depend on the processing

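Over all probe sets, 29 passed as reported. The count was 63 after quantile normalization again, 17 after median centring, 64 with array weights, 1 with an unmoderated test and 58 without HGI 1 and LGI 4 together, and 5 to 49 when each array was left out in turn (49 without HGI 3, 15 without HGI 4, 7 without HGI 5, and 5 without LGI 2, LGI 3 or LGI 5). The causes were not tested. Filters, a variance trend with a robust fit, 1 probe set per gene and the replicate block gave 25 to 38.

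Of the members, 1 passed (F11), 0 with the unmoderated test (adjusted p = 0.349) and 0 to 1 with an array left out. F11 kept its direction in every alternative run and missed the threshold in 7 of 10 leave-one-out fits. The median difference of clotting genes was 0.10 to 0.14 in the alternatives, 0.11 as reported. That of complement was 0.00 as reported, -0.04 to 0.07 with 1 array left out, and 0.15 without HGI 1 and LGI 4 together, where the median of all genes was -0.02. None of the 15 members given array by array changed direction in any alternative. Of all 43, 7 turned without LGI 4 (Serpinc1, Habp2, Mbl2, Masp2, Cfb, C8a and Serping1) and 10 when any 1 array was left out (also F13b, Thbd and Plg); none of these differences passed the test, and the largest was 0.19 in size. With the replicate number as a block, 33 probe sets and 1 member passed (F11, adjusted p = 0.0491). The numbers are shared names only: deviations of same-numbered arrays from their group means correlated at -0.05 to 0.07. By these deviations, no HGI array correlated best with the LGI array of its own number.

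With 5 arrays a diet and adjustment over 45037 probe sets, 1 of the 43 members passed, which does not show that the others did not differ. Whole liver cannot separate cell number from RNA per cell.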
